A study of Elaeis guineensis with 12 samples.

Results

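The 100 gene models described here took a larger share of the reads in staminodia than in carpel in each of 5 oil palms. They are the 100 highest scores among 12924 gene models, out of 26087 listed, and they were chosen by the measured counts themselves. Counts were summed per gene model, per palm and per organ, divided by the total of each sum and given per 1000000 assigned reads (CPM). A model entered the choice when its mean over the 10 palm by organ sums was at least 5 CPM, which 13142 models reached. Of these, 218 were left out because both normal staminodia sums stood above all other sums, so the members are not models that mark normal staminodia alone. The score was the smallest of the 5 within-palm values of log2((staminodia CPM + 1)/(carpel CPM + 1)), called the ratio below. Because this contrast chose the members, their staminodia and carpel values are given as a description, with no test.

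RNA was sequenced from florets of clonal palms of Elaeis guineensis at stage 3 of floral development. The 4 groups were staminodia and carpel of mantled palms and staminodia and carpel of normal palms, each with 3 libraries, from laser-captured pieces of cryosections. All palms were clonal plants. Mantled libraries came from 3 palms, one library per organ and palm. Normal palm 1 gave replicates 1 and 2, from different places in a single inflorescence, and normal palm 2 gave replicate 3, so the palm is the replicate and the normal group rests on 2 palms. Within a palm, the staminodia and carpel libraries carry the same palm label. The label of mantled palm 1 has a different prefix from the labels of all other palms. What the prefix stands for was not given in the sources used here. A difference tied to it cannot be told apart from a difference of that palm.

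The oil palm bears separate male and female inflorescences, and its female flower keeps staminodia, rudimentary male organs that stay sterile, around the carpels. In mantled palms, a variant that arises in tissue culture, the staminodia turn into pseudocarpels that resemble extra carpels. Floral organ identity in flowering plants is set by combinations of MADS-box transcription factors, in which B-class factors act with C-class factors in stamens and C-class factors act without them in carpels, and the mantled form resembles a loss of B-class function. A gene that is higher in staminodia than in carpel in mantled palms as well as in normal palms differs between the organs in both forms of the flower.

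The gene models carry IDs of a genome annotation and no gene names. None of the 100342 feature IDs (0 matched) is in the reference gene table, so no role, symbol or sequence is attached to any member, and the identity of the captured organs was not checked against marker genes of stamens or carpels. Assigned reads ran from 2121145 to 8066978 per library, or 25.3% to 32.2% of all counted rows. The most lightly sequenced carpel sums were those of mantled palm 3 and normal palm 2, at 2121145 and 2349579 reads. The share of the 13142 kept models with 0 reads was highest in carpel of normal palm 2, at 6.13%, and in staminodia of that palm, at 3.89%, against 0.0152% to 1.98% in the other sums.

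The scores of the members were small. The highest was 1.14, the median 0.37, which is a 1.29-fold difference in the palm where the member differed least, and the last member inside stood at 0.273, or 1.21-fold. The first model outside stood at 0.272. The smallest ratio was above 1, a 2-fold difference, in 2 of the 100 members. Of the 12924 models to choose from, 520 (4.02%) had all 5 ratios above 0. Over all 13142 kept models, 559 (4.25%) were higher in staminodia in all 5 palms and 919 (6.99%) were higher in carpel in all 5. In these bulk samples more cells of a type and more RNA per cell cannot be told apart, so a higher level in staminodia may be either.

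**Figure D1:**
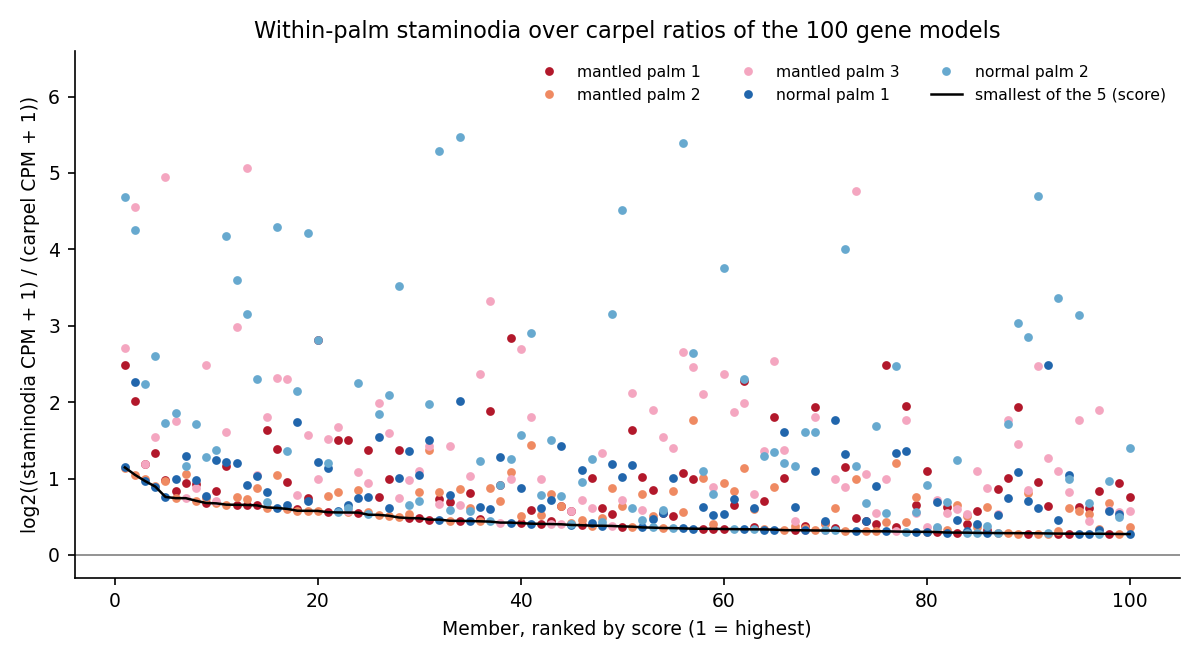
Within-palm log2((staminodia CPM + 1)/(carpel CPM + 1)) of the 100 members (y axis) by rank of the score (x axis), 1 point per palm, with the smallest of the 5 as a line. The line falls from 1.14 to 0.273, while the points of mantled palm 3 and normal palm 2 reach 5.06 and 5.47.

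The member with the highest score was maker-p5_sc00001-augustus-gene-162.42-mRNA-1:cds. Its staminodia levels were 21.7, 34.4 and 17.8 CPM in mantled palms 1, 2 and 3 and 16.4 and 24.6 CPM in normal palms 1 and 2. Its carpel levels were 3.06, 15, 1.89, 6.80 and 0 CPM in the same order. Every staminodia sum was above every carpel sum, with the closest approach between normal palm 1 staminodia and mantled palm 2 carpel. The ratio ranged from 1.14 in mantled palm 2 to 4.68 in normal palm 2, and its mean was 2.43 ± 1.45 (SD, n = 5 palms). The largest ratio rests on 53 reads in staminodia against 0 in carpel of normal palm 2, where a count of 0 allows a level of up to 1.28 CPM (3 reads, counting error only).

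The second, p5_sc00075_cds_298, stood at 15.4, 27.0, 22.6, 9.58 and 18.1 CPM in staminodia of mantled palms 1 to 3 and normal palms 1 and 2. In carpel it stood at 3.06, 12.5, 0, 1.2 and 0 CPM. Staminodia was higher within each palm, although the carpel of mantled palm 2 was above the staminodia of normal palm 1. The mean ratio was 2.83 ± 1.52 (SD, n = 5), the highest of all members. The third, p5_sc00075_cds_162, lies on the same scaffold, 136 model numbers away. Its staminodia levels were 17.7, 23.8, 4.52, 2.00 and 3.71 CPM and its carpel levels 7.22, 11.5, 1.41, 0.533 and 0 CPM. Here mantled palms 1 and 2 were higher than the other palms in both organs, and the carpel of those palms exceeded the staminodia of both normal palms. Its mean ratio was 1.31 ± 0.53 (SD, n = 5), and in normal palm 2 it rests on 8 reads against 0.

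The most abundant members differed little between the organs, but in each palm. The level of augustus_masked-p5_sc00002-processed-gene-17.20-mRNA-1:cds was 1180, 1770, 1050, 1440 and 1530 CPM in staminodia and 762, 1410, 712, 1180 and 945 CPM in carpel, again in the order mantled palms 1 to 3 and normal palms 1 and 2. The organs overlapped across palms: carpel of mantled palm 2 was above the staminodia of mantled palms 1 and 3. Its mean ratio was 0.50 ± 0.18 (SD, n = 5). Similarly p5_sc00008_cds_106 stood at 999, 1660, 801, 1550 and 1330 CPM in staminodia and at 798, 1270, 587, 1010 and 596 CPM in carpel, with a mean ratio of 0.59 ± 0.34 (SD, n = 5). In both models mantled palm 2 had the highest level of either organ.

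The most even member was p5_sc00045_cds_320, with 324, 598, 394, 477 and 342 CPM in staminodia and 242, 454, 314, 351 and 274 CPM in carpel. Its ratio was between 0.32 and 0.44 in every palm, a mean of 0.38 ± 0.06 (SD, n = 5), while its level varied more between palms than between the organs of any palm. The most uneven was p5_sc00149_cds_32, at 25.1, 26.2, 5.28, 3.33 and 40.9 CPM in staminodia and 11.4, 17.5, 0, 2.40 and 0 CPM in carpel. Its ratio ranged from 0.35 in normal palm 1, on 25 against 18 reads, to 5.39 in normal palm 2, on 88 against 0 reads.

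**Figure D2:**
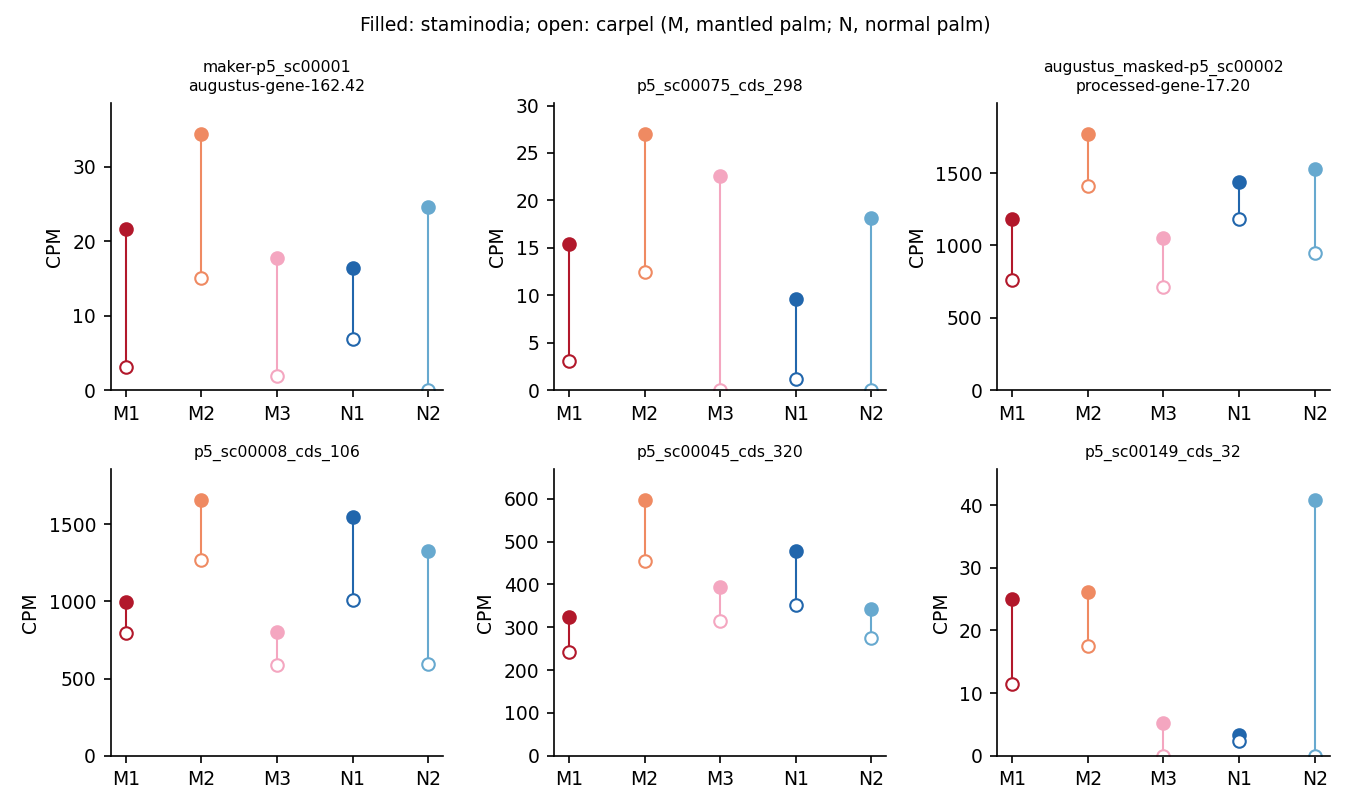
CPM of 6 members (y axes, each from 0) in staminodia (filled) and carpel (open) of each palm (x axes: M1 to M3, mantled palms; N1 and N2, normal palms), 1 sum per point. Lines join the organs of a palm, and the filled point is the upper one in every palm, with log2 ratios of 0.32 to 0.44 in p5_sc00045_cds_320 and of 0.35 to 5.39 in p5_sc00149_cds_32.

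At the threshold, the last member inside was maker-p5_sc00065-snap-gene-13.73-mRNA-1:cds, with 70.2, 56.2, 50.8, 24.2 and 32.0 CPM in staminodia and 40.9, 43.6, 33.9, 19.9 and 11.5 CPM in carpel. The first model outside was augustus_masked-p5_sc00019-processed-gene-41.9-mRNA-1:cds, with 107, 133, 244, 201 and 349 CPM in staminodia and 88.7, 107, 87.2, 112 and 252 CPM in carpel. The mean ratio was 0.67 for both.

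Among the members, ratios were larger and less even where levels were low. The choice itself ties uneven ratios to large mean ratios, because a model with uneven ratios reaches a high smallest ratio only if its mean ratio is large. Why ratios were less even at low levels was not tested. The pattern is given as a description of the members alone. Mean CPM of the members ran from 5.52 to 1200, with quartiles of 11.2, 23.1 and 48.1, against a median of 25.9 over all kept models. The 16 members at 100 CPM or more had mean ratios of 0.38 to 1.33 with a median of 0.59 and a median SD over palms of 0.25. The 23 members under 10 CPM had mean ratios of 0.96 to 2.10 with a median of 1.31 and a median SD of 0.94. Over all members the mean ratio ran from 0.38 to 2.83 with a median of 1.04, and 54 members had a mean ratio above 1.

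**Figure D3:**
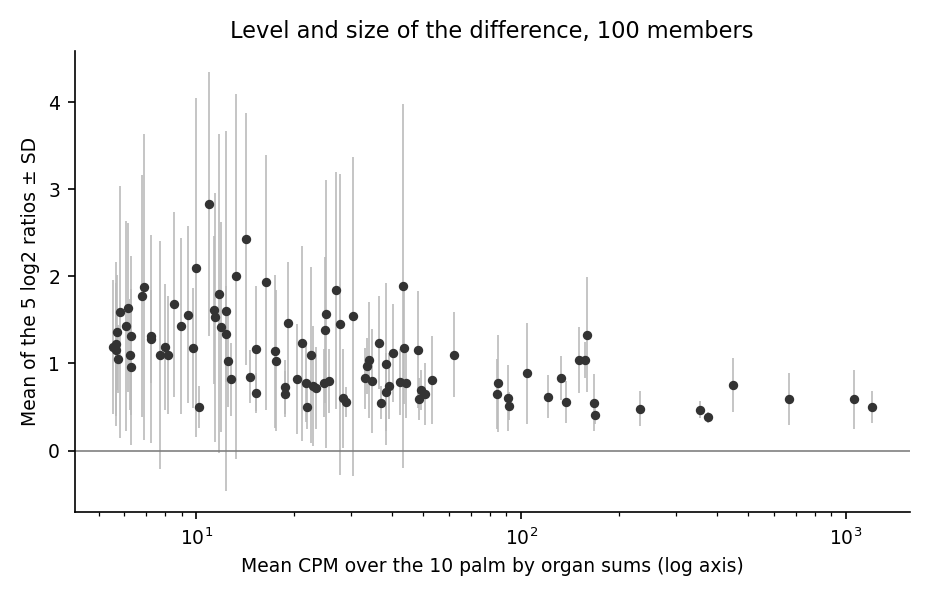
Mean of the 5 within-palm log2 ratios (y axis; bars, ± SD over 5 palms) against mean CPM over the 10 sums (x axis, log scale) of the 100 members. Points on the right lie low with short bars (median ratio 0.59 at 100 CPM or more) and points on the left lie higher with long bars (median ratio 1.31 under 10 CPM). The members were chosen on these same ratios, which ties long bars to large means.

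No member was absent from staminodia, since each had reads in all 5 staminodia sums, and none was absent from carpel in all palms. In carpel, 21 members had 0 reads in at least 1 sum, of which 19 in normal palm 2, 6 in mantled palm 3 and 1 in mantled palm 1. Most of these gaps thus lie in carpel of normal palm 2. Carpel of mantled palm 3 held fewer reads (2121145 against 2349579) and had fewer such gaps. Of all kept models, 1.48% had 0 reads in carpel of mantled palm 3 and 6.13% in carpel of normal palm 2. Mean carpel levels were under 5 CPM for 20 members. Together the 100 members took 0.824% to 1.09% of assigned reads in the staminodia sums and 0.447% to 0.769% in the carpel sums, so they are a small share of the RNA counted in either organ.

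Staminodia and carpel sums separated without overlap across palms in 9 members, whose lowest staminodia sum was above the highest carpel sum. This holds for 23 of all 13142 kept models, or 0.175%, and nothing is read from the comparison because the same contrast chose the members. Their mean CPM ran from 8.19 to 168 and their mean ratio from 0.55 to 2.43. The 9 ranked from 1 to 85 by score, and 2 of them were among the 10 highest scores, so a high score and separation across palms are different properties. In the other 91 members at least 1 carpel sum was as high as or above a staminodia sum of another palm.

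The palms contributed unequally to the members' ratios. The median ratio was 0.67 in mantled palm 1, 0.60 in mantled palm 2 and 1.09 in mantled palm 3. It was 0.69 in normal palm 1 and 1.25 in normal palm 2. A ratio above 1 was found for 29, 11 and 55 members in mantled palms 1, 2 and 3 and for 32 and 58 in normal palms 1 and 2. The largest ratio of a member lay in normal palm 2 for 42 members and in mantled palm 3 for 36, and the smallest most often in mantled palm 2, for 30.

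Over all kept models the interquartile range of the ratio was 0.88, 0.67 and 1.13 in mantled palms 1, 2 and 3 and 0.55 and 1.44 in normal palms 1 and 2. Mantled palm 3 and normal palm 2, in which members had the larger ratios, were thus those in which all models spread most widely, and their carpel sums held the fewest reads. The part of depth in the members' ratios was not tested. The median ratio over all kept models was close to 0 in each palm, from -0.064 to -0.020.

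The rule requires the organ difference in mantled and normal palms alike, and its size may vary between them. The median over members of the mean ratio was 0.85 in mantled palms and 1.03 in normal palms, and 59 of 100 members had the larger mean in normal palms. Among all 520 models with 5 ratios above 0, this was so for 287. In 15 members both normal ratios exceeded all 3 mantled ones, against 10.2% of all kept models, and in 9 all mantled ratios exceeded both normal ones, against 9.61%. Among the 520 models these patterns were found in 52 (10%) and 43 (8.27%), so both counts lie near the background and nothing about the members is read from them. No test of this difference was made, since the rule used these ratios.

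Normal palm 1 was sequenced as a pair of libraries per organ, which the rule joined. Taken apart, 92 members were higher in staminodia in replicate 1 and 93 in replicate 2, with median ratios of 0.59 and 0.80, and 85 were higher in both. Both staminodia libraries exceeded both carpel libraries in 72 members, against 16.1% of all kept models, a count the choice on their sum raises. The median absolute log2 difference between replicates 1 and 2 of the same organ was 0.36 in staminodia and 0.45 in carpel for the members, and 0.33 and 0.34 for all kept models. For 42 members the score was smaller than the difference between the staminodia libraries of this palm.

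To see the organ difference in a palm that had no part in the choice, 100 models were chosen by the same rule on 4 palms and then looked at in the fifth. With a normal palm left out, the clause on normal staminodia rested on 1 sum and removed more models. The choice was then open to 11393 models (normal palm 1 left out) and 12316 (normal palm 2 left out). With a mantled palm left out it was open to 12695 to 12812. In mantled palm 1, 50 of the 100 were higher in staminodia, with a median ratio of 0.02. In mantled palm 2 there were 64, with a median of 0.23, and in mantled palm 3 there were 68, with a median of 0.68. In normal palm 1 there were 61, with a median of 0.19, and in normal palm 2 there were 54, with a median of 0.16. In CPM each count was above the share of all models open to that choice that were higher in staminodia of the same palm, which was 45.2%, 45.5%, 47.9%, 42.0% and 47.4% in the same order. Mantled palm 1 and normal palm 2 stood closest to that share. With TMM-adjusted library sizes the direction turned in mantled palm 1, where 49 of 100 were higher in staminodia against 51.4% of all models, with medians of -0.01 and 0.02.

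In 4 of the 5 palms, the median ratio in the palm left out was below the median smallest ratio in the palms that chose the models. The median smallest ratio over the 4 palms that made the choice was 0.63, 0.58, 0.49, 0.57 and 0.51 in the same order, and it was exceeded in mantled palm 3. The smallest of 4 ratios lies at or below the others by definition, so this comparison understates a fall in size. The quartiles in the palm left out spanned 0 in each palm, from -0.90 to 0.61 in mantled palm 1 and from -0.18 to 1.57 in mantled palm 3. Between 39 and 60 of the models chosen on 4 palms were among the 100 chosen on all 5. Membership of many models thus depends on which palms were sampled.

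**Figure D4:**
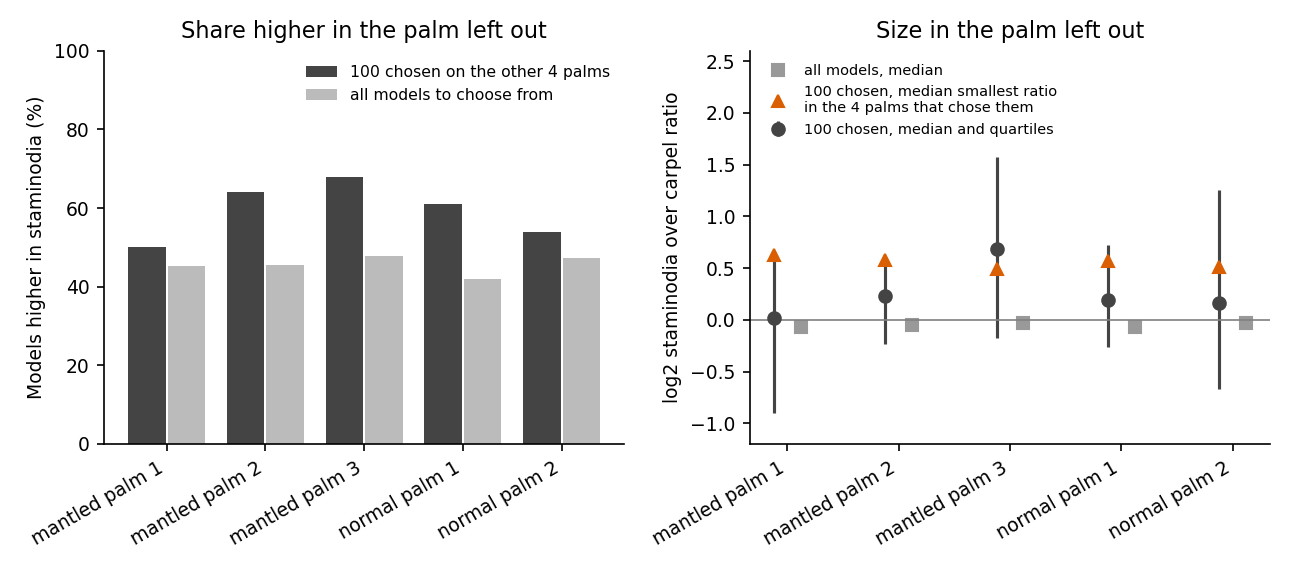
Left, percentage of models higher in staminodia in the palm named on the x axis (dark bars, 100 models chosen on the other 4 palms; light bars, all models open to that choice). Right, log2 ratio in that palm (circles and lines, median and quartiles of the 100; triangles, their median smallest ratio in the palms that chose them; squares, median of all models). The dark bars reach 50% to 68% and the light bars 42.0% to 47.9%, and the triangle lies above the circle in all but mantled palm 3.

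Whether the members also differ between mantled and normal palms was asked in each organ with edgeR's quasi-likelihood test, fitted on all gene models with palms as replicates (3 mantled, 2 normal). None of the 100 members passed an adjusted p of 0.05 in staminodia, where 3 of 15050 models (0.0199%) did. The smallest adjusted p of a member was 0.643. At an unadjusted p under 0.05, 9 members were higher and 3 lower in mantled staminodia, against 1.97% and 2.41% of all models, and DESeq2 and limma voom called 0 members. The median log2 fold change, mantled over normal, was 0.14 for the members and 0.05 for all models, and 62 members were above 0 against 53.1% of all models. Levels of both organs enter the rule as within-palm ratios. The rule also left out models in which both normal staminodia sums stood above all other sums, while all models tested still hold them. The choice thus works against lower members and raises the members' median and their share above 0. Nothing about the members is read from these comparisons.

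In carpel 99 members were tested and 0 were called, as were 0 of 16191 models (0%), and the smallest adjusted p of a member was 0.996. Unadjusted p-values under 0.05 were found for 5 members that were higher and 2 that were lower, against 1.98% and 1.77% of all models, and DESeq2 and limma voom called 0 members. The median log2 fold change was 0.53 for the members and 0.07 for all models, and 72 of 99 members were above 0 against 55.0%. A carpel level raises or lowers a member's ratio, so this contrast is not independent of the choice. The median was 1 without normal replicates 1 and 2, when normal palm 2 stands for the normal group, 0.26 without normal replicate 3, when normal palm 1 does, and 0.19 without mantled replicate 2. Normal palm 2 is the palm with 0 reads in carpel for 19 members.

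With both organs of a palm summed, 0 of the 100 members were called, against 2 of 17340 models (0.0115%). The smallest adjusted p of a member was 0.841, 11 members were higher and 2 lower at an unadjusted p under 0.05, against 2.27% and 2.39% of all models, and DESeq2 and limma voom called 0 members. DESeq2 gave no adjusted p for 13 members. The median log2 fold change was 0.22 for the members and 0.04 for all models. These sums hold the staminodia counts, so the models left out by the clause on normal staminodia limit lower members here as well. Nothing about the members is read from the counts higher and lower or from the median.

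Counted by CPM, all mantled sums stood above both normal sums in 20 members in staminodia and 15 in carpel, against 12.8% and 12.9% of all kept models. All mantled sums stood below both normal sums in 1 member in staminodia, against 8.58%, and in 4 in carpel, against 8.06%. The rule nearly fixes the count of 1. A member of that pattern stayed only where a normal carpel sum reached the staminodia sum of the other normal palm. Removing such models also leaves more room for the opposite pattern, so nothing is read from either staminodia count.

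**Figure D5:**
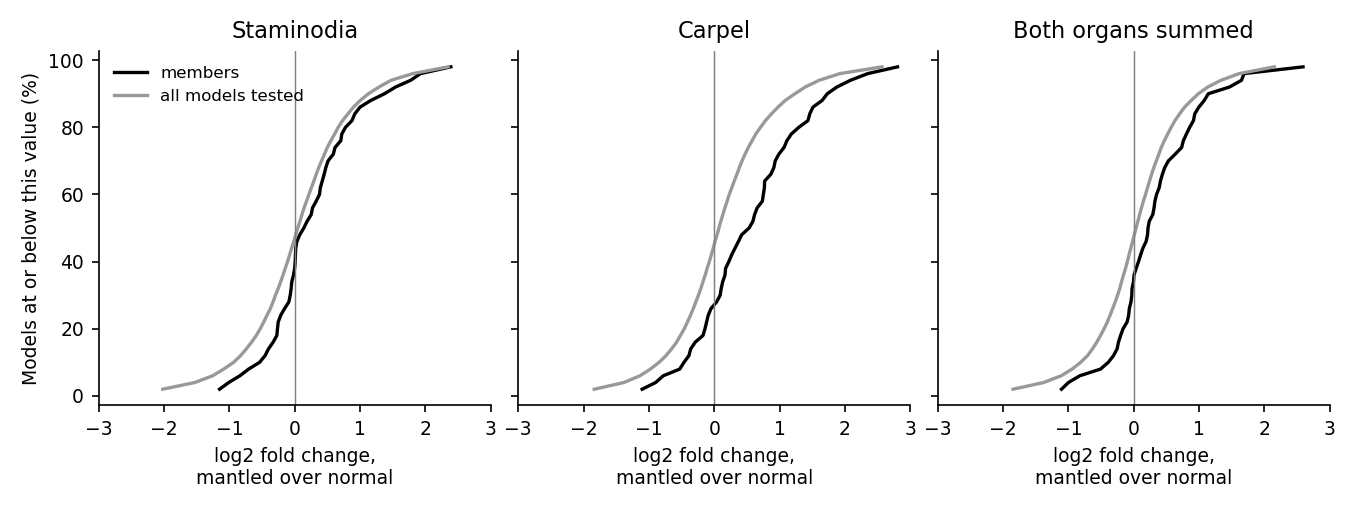
Percentage of models at or below a log2 fold change, mantled over normal (x axes), for the members (black) and all models tested (grey), in staminodia, carpel and both organs summed. The black curve crosses 50% at 0.14, 0.53 and 0.22 and the grey at 0.05, 0.07 and 0.04, with the widest gap in carpel. Models highest in both normal staminodia sums were left out of the members but not of all models, which favours higher values in the members.

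The members with the smallest p in these fits are given by their levels, since none was called. In staminodia maker-p5_sc00018-augustus-gene-0.34-mRNA-1:cds stood at 220, 188 and 123 CPM in mantled palms and at 52.0 and 83.1 CPM in normal palms, without overlap. Its log2 fold change was 1.33 (SE 0.364, edgeR adjusted p = 0.643). Its carpel levels were 139, 105 and 33.0 CPM against 31.1 and 65.5 CPM, which overlap. For maker-p5_sc00042-snap-gene-6.46-mRNA-1:cds staminodia levels were 74.8, 60.9 and 38.9 CPM against 7.85 and 22.3 CPM, also without overlap, at a log2 fold change of 1.93 (SE 0.58, edgeR adjusted p = 0.781). Its carpel levels of 53.4, 30 and 0.471 CPM in mantled palms and 6.13 and 9.36 CPM in normal palms overlap because of mantled palm 3.

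Lower in mantled staminodia were augustus_masked-p5_sc00355-processed-gene-2.5-mRNA-1:cds and maker-p5_sc00099-augustus-gene-6.37-mRNA-1:cds. The former stood at 567, 523 and 791 CPM in mantled palms against 1450 and 649 CPM in normal palms, so the groups overlap and the difference lies with normal palm 1. Its log2 fold change was -0.83 (SE 0.33, edgeR adjusted p = 1). Its carpel levels were 419, 422 and 379 CPM against 1050 and 404 CPM, again high in normal palm 1, with a log2 fold change of -0.89, which was 0.02 without normal replicates 1 and 2. The latter stood at 21.4, 33.2 and 42.2 CPM against 33.9 and 104 CPM, where normal palm 2 is the high one.

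In carpel maker-p5_sc00064-augustus-gene-16.36-mRNA-1:cds stood at 51.9, 36.1 and 16 CPM in mantled palms against 10.7 and 3.83 CPM in normal palms, without overlap. Its log2 fold change was 2.18 (SE 0.683, edgeR adjusted p = 0.996). Likewise maker-p5_sc00162-snap-gene-14.56-mRNA-1:cds stood at 57.6, 37.2 and 30.6 CPM against 17.6 and 8.09 CPM, at a log2 fold change of 1.64 (SE 0.535, edgeR adjusted p = 0.996). Its staminodia levels of 116, 53.5 and 94.0 CPM were also above the normal levels of 27.5 and 37.6 CPM. It had the smallest p of all members with both organs summed, at a log2 fold change of 1.46 (SE 0.374, edgeR adjusted p = 0.841). With no filter on low counts this member (adjusted p = 0.0384) and maker-p5_sc00042-snap-gene-6.46-mRNA-1:cds (adjusted p = 0.0287) were called in that fit by edgeR. Over the alternatives in that fit the adjusted p ran from 0.0384 to 1 for the former and from 0.0287 to 1 for the latter.

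Opposite in direction was p5_sc00001_cds_613, at 24.1, 12 and 25.5 CPM in mantled carpel against 51.1 and 36.6 CPM in normal carpel, and at 31.4, 18.7 and 45.2 CPM in mantled staminodia against 79.0 and 46.4 CPM in normal staminodia. Its log2 fold change in carpel was -1.15 (SE 0.475, edgeR adjusted p = 0.996). The groups do not overlap in either organ, although in staminodia mantled palm 3 comes close to normal palm 2. It escaped the clause on normal staminodia because normal palm 1 carpel was above normal palm 2 staminodia.

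By their IDs the members lay on 77 of the 1269 scaffolds with a kept model. Of these 77, 59 held 1 member, 16 held 2 and 2 held at least 3. The number of scaffolds that 100 kept models would take was not computed, so neither spread nor clustering is read from this. Scaffold p5_sc00001 held 6, or 6% of the members against 3.7% of the kept models. No pair of members with model numbers lay within 5 numbers of each other, and the closest pair, p5_sc00037_cds_417 and p5_sc00037_cds_451, was 34 apart. Neighbours could be listed only for the 63 members with numbered parts. Of the 121 nearest listed models on either side of these, at a median of 3 model numbers away, 0 were members and 59 were kept. Members are 100 of 26087 gene models, so nothing is read from this count of 0. All 5 ratios were above 0 in 3 of the 59 kept neighbours (5.08%), against 4.25% of all kept models. The mean ratio was above 0 in 29 (49.2%), against 43.9% of all kept models. That neighbouring numbers lie side by side on a scaffold was taken from the IDs alone.

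By the form of their IDs 63 members had numbered parts, against 62.0% of kept models, and 9 were of the form that begins with augustus_masked, against 3.17%. Members with numbered parts had a median of 3 parts and at most 16, against a median of 5 for kept models. Parts are read here as pieces of 1 coding sequence.

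The mean ratio was not above 0 in every part of each member. Of 45 members with at least 2 parts of 20 or more reads over all libraries, 25 had a mean ratio above 0 in every such part. The other 20 had at least 1 part at or under 0. Parts near 20 reads have few reads per sum, and whether they differ from the rest of a member was not tested. The largest part held 98% of the reads of p5_sc00148_cds_43, whose lowest part stood at -0.94, and 39.9% of those of p5_sc00045_cds_320. Over these members 133 of 169 parts (78.7%) were above 0, against 43.8% of 29261 parts of other kept models, from the same reads that chose the members. The member with most parts, p5_sc00018_cds_129, had 14 of 16 parts with enough reads, of which 11 had a mean ratio above 0, in a range from -0.33 to 1.31, and the largest part held 64.7% of its reads. Its summed level was 246, 309, 210, 302 and 280 CPM in staminodia and 200, 243, 127, 187 and 218 CPM in carpel. In p5_sc00075_cds_298, the second by score, all 5 parts with enough reads had a mean ratio above 0, from 0.17 to 2.18. In p5_sc00045_cds_320, the most even as a sum, 4 of 5 parts did, and the lowest part stood at -0.90.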

How the data were processed

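Stranded, ribosome-depleted libraries of laser-captured tissue were made and sequenced as paired ends, per the labels' protocols. Per the submitters' processing notes, processing involved TopHat2 2.0.13, HTSeq 0.6.1p1, CASAVA 1.8.2, cutadapt and Trim Galore. The genome build and the strand used in counting were not given in the sources used here, and overlapping and antisense genes may share reads. The deposited values are raw read counts of features, in whole numbers, as made by the authors. Rows that name no gene were left out of totals and tests, with 46.9% to 50.5% of reads in no feature, 10.9% to 14.3% ambiguous and 5.78% to 16.7% not unique. Reads of near-identical copies fall in the last class. Features with a part number (18394 models) were summed, and 7693 models had another ID form.

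CPM, ratios and the choice of members were computed from palm sums with a pseudocount of 1, which understates the ratio of low models. CPM is not per length, so levels are compared within a model. Mantled and normal palms were compared with edgeR 4.0.16 in R 4.3.3 (filterByExpr, TMM, robust glmQLFit and glmQLFTest, Benjamini-Hochberg adjustment over all models tested, threshold 0.05). DESeq2 1.42.0 and limma 3.58.1 (voom) were alternatives, with other scalings, pseudocounts, CPM minimums and replicates left out. With 3 and 2 palms, p-values rest on few palms and on spread shared across models. Each SE is the log2 fold change divided by the square root of the F statistic. The steps were tested on simulated counts. For the choice, the simulated differences were larger than the score of any member, and palms differed by counting error alone. That run does not show how well differences of the members' size are found.

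The members and lists were chosen with earlier results of these data known. Models are named by rule: the 3 highest scores, the 2 highest in staminodia, those on either side of the threshold, the most even and most uneven ratios, the most parts, and per fit the 2 members of smallest p in each direction. The closest pair by model number was named after its value was seen. Replicates 1 and 2 of normal palm 1 are parts of 1 inflorescence and were counted once.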

Additional observations from a re-analysis of the deposited data

How the results depend on the processing

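Of the 100 members, between 77 and 97 were kept under another scaling, pseudocount, CPM minimum or with no model left out by the clause on normal staminodia, 71 with replicates 1 and 2 of normal palm 1 as separate pairs, and 30 when the mean of the 5 ratios took the place of the smallest. Leaving out 1 replicate kept 39 to 76, and leaving out the pair of normal replicates 1 and 2 kept 46. Of 100 models chosen on 4 palms, those higher in staminodia of the palm left out numbered 48 to 54, 61 to 67, 65 to 71, 57 to 69 and 52 to 56 (mantled palms 1 to 3, normal palms 1 and 2) over the alternatives. With TMM-adjusted library sizes mantled palm 1 fell below the share of all models, at 49 against 51.4%.

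Models called in staminodia (3) numbered 48 in DESeq2, 35 in limma voom, 73 with no filter on low counts, 17 with each library as a replicate, 9 on deposited features, 0 to 32 without 1 replicate. In carpel (0) they numbered 4, 7 and 24 in the first 3 settings and 0 to 5 without 1 replicate. With both organs summed (2) they numbered 34, 9 and 88, and 1 to 15 without 1 replicate. Members called stayed at 0 in each organ in all alternatives run, and were 2 without a filter with both organs summed. The members' median log2 fold change ranged from 0.07 to 0.36 in staminodia, from 0.19 to 1 in carpel and from 0.16 to 0.33 with both summed when replicates or the pair were left out. The highest came without normal replicate 3 in staminodia and in the summed organs, and without the pair in carpel. In carpel augustus_masked-p5_sc00355-processed-gene-2.5-mRNA-1:cds turned from -0.89 to 0.02 without the pair. Of 315 values 280 met the limit set for their kind: the same direction and call for a single model, within 1.5 times for a count, and for a median within 1 SD between palms of the members' median (0.14 in staminodia, 0.45 in carpel, 0.08 with both summed). The causes were not tested. No paired analysis was possible because mantled and normal libraries came from different palms, and no test between the organs was made.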
